A study of Mus musculus with 8 samples.

Results

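The genes of the primary cilium and of intraflagellar transport (IFT) were examined in 2 regions of the mouse embryonic head mesenchyme. They were 50 genes taken by symbol from a table of 23420 genes; 49 were found under their own symbol and Ift22 under its older symbol Rabl5. The groups were supraorbital mesenchyme (SOM) and early migrating mesenchyme (EMM), both from untreated wild type C57BL/6 embryos at E12.5, with no allele or agent that set them apart. Each group had 4 libraries and each library pooled tissue of 4 to 5 embryos, after dispase digestion and removal of surface ectoderm and brain. The libraries held 16.8 to 33.7 M gene-assigned reads in SOM and 12.7 to 22.4 M in EMM, and every cilium gene had at least 62 reads in every library. The sources used here do not state if both regions were cut from the same animals, and the p-values cover only the variation among pools. All 7 mesenchyme markers examined were abundant in both regions, with 3 higher in SOM and 4 higher in EMM. Prrx1, Twist1 and Vim were higher in SOM, at differences of 0.12 to 0.32 on the log2 scale, and Col1a1 (-1.77), Col1a2 (-1.66), Col3a1 (-1.18) and Pdgfra (-0.40) were higher in EMM.

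The primary cilium is a single, non-motile projection of the cell surface built on a centriole. Kinesin-2 carries trains of IFT-B and IFT-A proteins toward its tip and dynein-2 brings them back, the BBSome (the coat named after Bardet-Biedl syndrome) moves membrane proteins along with these trains, and the transition zone at the base gates what enters. In vertebrates the cilium is where Hedgehog signals are received, and human mutations in these genes cause ciliopathies, many with malformed skull, face and limbs.

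Cilium genes differed between the regions by small amounts, and more of them were higher in SOM than in EMM. Of the 50, all of which passed the filter on low values, 23 had higher values in SOM, 7 in EMM, and 20 missed the threshold (limma, Benjamini-Hochberg adjusted p below 0.05 over all 14249 genes tested). These counts come to 46% and 14% of the cilium genes, where 36% of all genes tested were higher in SOM and 36.1% in EMM. In either direction 60% of the cilium genes passed, against 72.1% of all genes tested and 73.1% of the 8454 whose mean lay in the range of the cilium genes. None differed by 2-fold or more, while 16.2% of all genes tested, and 11.2% of those in that range, passed and did so; over all genes these were 5.19% higher in SOM and 11% higher in EMM. The differences are given throughout as SOM minus EMM on the scale of log2(normalized count + 1). They ran from -0.68 for Kif3b to 0.68 for Evc2, with a median of 0.15, beside a median of 0.01 over all genes tested. The widest fold between group means was 1.61, in Evc2.

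**Figure D1:**
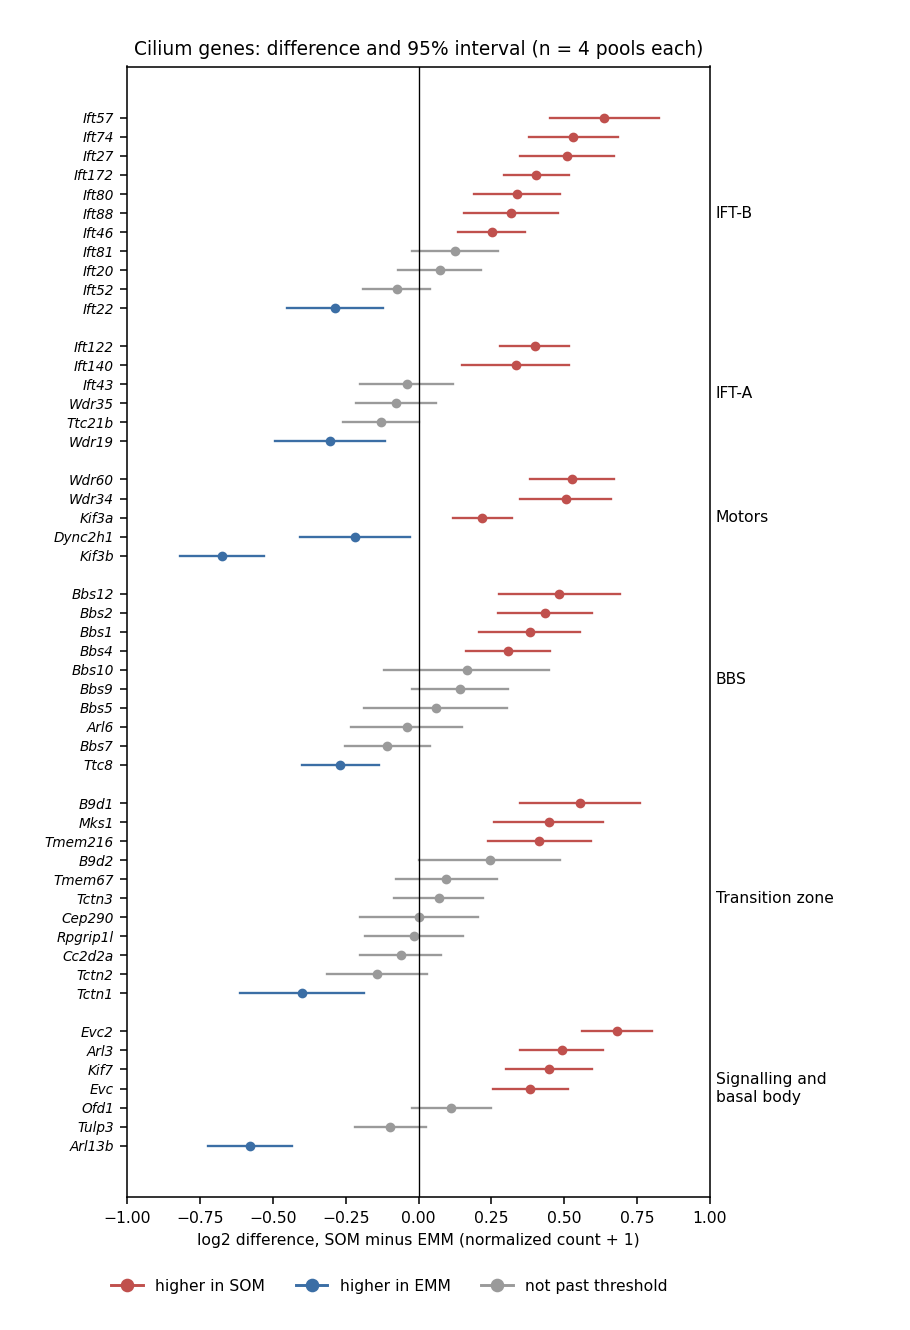
Fitted log2 difference (SOM minus EMM, x axis) of each of the 50 cilium genes, with its 95% interval, grouped by role. Red points were higher in SOM (23), blue points higher in EMM (7) and grey points did not pass (20); each role holds at least 1 gene on either side.

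The libraries of the regions did not overlap in 30 of the 50 genes, 24 with all SOM libraries above and 6 with all EMM libraries above. Of all genes tested, 66.1% did not overlap, 32.9% with SOM above and 33.2% with EMM above. Summed over the 50 genes, normalized counts ran from 34525 to 34976 in SOM libraries and from 30403 to 31334 in EMM libraries. Cell division genes moved the same way, with 12 of 12 higher in SOM and sums of 78448 to 81080 in SOM and 50668 to 57578 in EMM. All 6 macrophage markers were higher in EMM, with sums of 1726 to 1997 in SOM and 7672 to 9768 in EMM, as were 4 of 5 pericyte and smooth muscle markers, with sums of 9922 to 11831 in SOM and 58938 to 66218 in EMM. The remaining pericyte and smooth muscle marker, Cspg4, was higher in SOM by 0.33, with overlapping libraries. All 4 glia markers were higher in SOM, with sums of 864 to 978 in SOM and 82.1 to 107 in EMM, and 2 of 5 surface ectoderm markers were higher in EMM, with sums of 176 to 276 in SOM and 720.3 to 789.9 in EMM. All 4 tested red blood cell markers were higher in EMM, with sums of 56167 to 71912 in SOM and 109880 to 260690 in EMM, as were 4 of 5 endothelial markers, with sums of 9382 to 11090 in SOM and 12641 to 16472 in EMM. The remaining endothelial marker, Pecam1, was higher in SOM by 0.24, and the libraries overlapped in Pecam1 and in Cdh5 (-0.23). The 5 neuron markers were split, 3 toward SOM and 2 toward EMM, with sums of 2545 to 2759 in SOM and 782 to 1166 in EMM. Of 5 brain progenitor markers, Emx2 was higher in SOM by 2.81 and Sox2 did not pass. Sox1, Sox3 and Pax6 were too low to be tested, with every EMM library above every SOM library. The part of these cells and of cell division in the cilium gene differences was not tested. With SOM replicate 4 and EMM replicates 2 and 3 left out together, a choice made after the values were seen, 24 cilium genes were higher in SOM and 6 in EMM. In bulk tissue, fewer cells of a type and less RNA per cell cannot be told apart.

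Among the 3 main structural classes, IFT genes had the highest share on the SOM side and transition zone genes the highest share that did not pass. The 17 IFT genes held 9 that were higher in SOM and 2 that were higher in EMM, and their median difference was 0.25. The 10 BBS genes held 4 and 1 such genes, with their median at 0.15, and the 11 transition zone genes held 3 and 1, with their median at 0.07. That left 6 IFT, 5 BBS and 7 transition zone genes that did not pass. These SOM shares are 52.9%, 40% and 27.3%, on either side of the 36% of all genes tested. The EMM shares are 11.8%, 10% and 9.09%, all below the 36.1% of all genes tested. Among all 14249 genes tested, 3971 did not pass. Whether the classes differ from each other was not tested. In each class the mean log2 value separated the libraries by region, at 9.49 to 9.58 in SOM and 9.32 to 9.38 in EMM for IFT, 8.16 to 8.25 in SOM and 8.01 to 8.05 in EMM for BBS, and 8.27 to 8.32 in SOM and 8.16 to 8.20 in EMM for the transition zone. Within IFT this held for the IFT-B genes, at 9.57 to 9.67 in SOM and 9.33 to 9.39 in EMM, while the IFT-A libraries overlapped, at 9.35 to 9.43 in SOM and 9.29 to 9.41 in EMM.

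**Figure D2:**
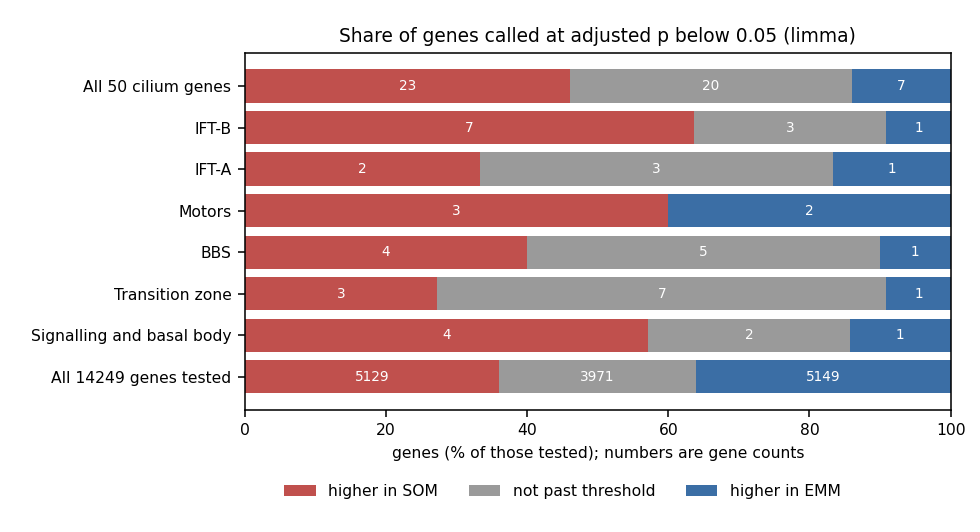
Genes higher in SOM (red), not past the threshold (grey) and higher in EMM (blue), as a percentage of the genes tested in each class, with gene counts printed in the bars. The bar of the 50 cilium genes has a red part of 46% and a blue part of 14%, where the bar of all 14249 genes is split 36% and 36.1%.

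Most IFT-B genes were higher in SOM. IFT-B is the train complex that enters the cilium with kinesin-2. Of its 11 genes, 7 were higher in SOM (Ift57, Ift74, Ift27, Ift172, Ift80, Ift88 and Ift46), Ift22 was higher in EMM, and Ift20, Ift52 and Ift81 did not pass. Ift57, a peripheral IFT-B subunit, had normalized counts of 429, 395, 363 and 351 in SOM replicates 1 to 4, against 231, 231, 264 and 260 in EMM replicates 1 to 4. Every SOM library lay above every EMM library, with a difference of 0.64 (SE 0.09, limma adjusted p = 7.37e-06). Ift74, which binds tubulin together with Ift81, had 1492, 1634, 1296 and 1364 in SOM and 1048, 1048, 905 and 992 in EMM. The groups were again apart, by 0.53 (SE 0.07, limma adjusted p = 6.66e-06), while Ift81 had a difference of 0.13 with a 95% interval of -0.02 to 0.27. Ift88, the gene of the polaris protein whose loss removes cilia in mice, averaged 569 ± 51.5 in SOM and 456 ± 26.4 in EMM (SD, n = 4 each; difference 0.32, limma adjusted p = 0.00149). Ift22, a small GTPase of the train, had 384, 347, 397 and 381 in SOM and 463, 461, 416 and 505 in EMM. Ift22 was the gene of the 11 called lower in SOM, by -0.29 (SE 0.08, limma adjusted p = 0.00334). The difference of Ift20, which also has a pool at the Golgi, was 0.07 (95% interval -0.07 to 0.22) and that of Ift52 was -0.08 (-0.19 to 0.04).

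IFT-A genes were split. This complex turns traffic back at the tip and brings membrane receptors into the cilium. Of its 6 genes, Ift122 and Ift140 were higher in SOM (33.3%), Wdr19 was higher in EMM (16.7%), and Ift43, Wdr35 and Ttc21b did not pass. The median of the 6 was -0.06. Of all genes tested, 36% were higher in SOM and 36.1% in EMM. Ift122 had 817, 807, 826 and 809 in SOM and 609, 609, 651 and 603 in EMM, which left a wide gap between the groups (difference 0.40, SE 0.06, limma adjusted p = 9.17e-06). Ift140 had 967, 1029, 1104 and 1108 in SOM and 700, 875, 967.0 and 813 in EMM. Its lowest SOM library and highest EMM library were nearly level, and the difference was 0.33 (SE 0.09, limma adjusted p = 0.00283). Wdr19, the gene of the IFT144 subunit, had 364, 306, 300.0 and 359 in SOM and 460, 376, 400.4 and 404 in EMM. All EMM libraries lay above all SOM libraries, with a difference of -0.30 (SE 0.09, limma adjusted p = 0.00591). The differences of Ift43, Wdr35 and Ttc21b (the gene of the IFT139 subunit) were -0.04, -0.08 and -0.13, and their 95% intervals held values from -0.26 to 0.12.

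Subunits of 1 motor moved in opposite directions. Kif3a and Kif3b encode the motor subunits that pair in kinesin-2, and both passed. Kif3b, on chromosome 2 from 153291413 to 153333390 of GRCm38, had 623, 605, 679.7 and 721.9 in SOM and 1057, 989, 1131 and 1019 in EMM. The EMM libraries were all higher, by a difference of -0.68 (SE 0.07, limma adjusted p = 1.93e-07). Kif3a, on chromosome 11 from 53567379 to 53601967, had 2252, 2273, 2079 and 2212 in SOM and 1947, 1887, 1830.5 and 1904 in EMM. Here the SOM libraries were all higher, by 0.22 (SE 0.05, limma adjusted p = 0.000700). The ratio of Kif3a to Kif3b normalized counts, chosen after the values were seen, was 3.61, 3.76, 3.06 and 3.06 in SOM and 1.84, 1.91, 1.62 and 1.87 in EMM. The ratio was not divided by exon length (3586 and 5635 bases), and so compares the regions rather than the levels of Kif3a and Kif3b. Kifap3, which encodes the accessory subunit that binds both, averaged 2825 ± 124 in SOM and 3578 ± 72.1 in EMM (SD, n = 4 each; difference -0.34, limma adjusted p = 6.62e-06).

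Dynein-2 genes were divided in a similar manner. Its intermediate chain genes Wdr60 and Wdr34 were higher in SOM. Wdr60 had 584, 639, 691 and 683 in SOM and 457, 445, 444 and 451 in EMM (difference 0.53, SE 0.07, limma adjusted p = 3.40e-06). Wdr34 had 703, 745, 837 and 699 in SOM and 484, 569, 507 and 539 in EMM (difference 0.51, SE 0.07, limma adjusted p = 1.31e-05). The groups were apart for both. Dync2h1, the heavy chain that does the pulling, had 579, 653, 487 and 633 in SOM and 728, 728, 638 and 631 in EMM. The groups overlapped, and the difference of Dync2h1 was -0.22 (SE 0.09), with a limma adjusted p of 0.0382, in a range over the alternatives tried from 0.0158 to 0.136. The call was lost without SOM replicate 1, without EMM replicate 1 or 2, and without SOM replicate 3, where the difference was -0.13, and without SOM replicate 4 and EMM replicates 2 and 3 together. It was also lost with no filter, with upper quartile or TMM scaling, without trend and robust moderation, with edgeR (adjusted p = 0.0712) and in the authors' deposited table (adjusted p = 0.0586). Dync2li1, the light intermediate chain gene, had means of 356 in SOM and 428 in EMM, with groups apart (n = 4 each; difference -0.26, limma adjusted p = 0.00295).

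**Figure D3:**
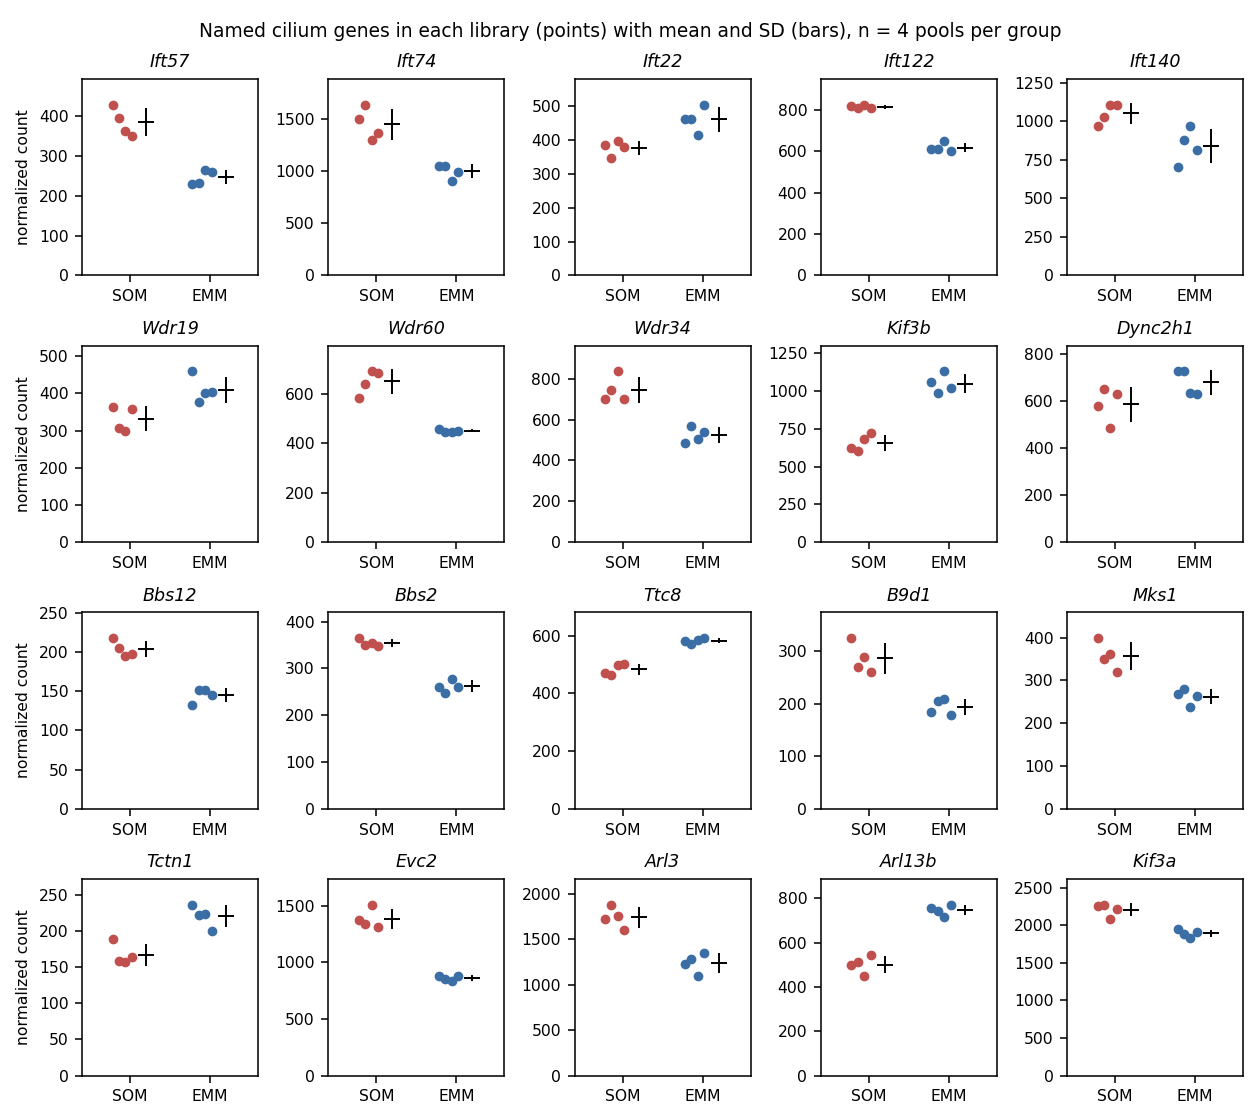
Normalized counts (y axis, from 0) of 20 cilium genes in the 4 SOM (red) and 4 EMM (blue) libraries, with the mean and SD of each group beside them; the genes are those with the widest called differences in each role, and Kif3a. The groups overlap in Dync2h1 alone among these 20.

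Of the 10 BBS genes, 5 passed, and Ttc8 was the one of these lower in SOM. Bbs1, Bbs2, Bbs4, Bbs5, Bbs7, Bbs9 and Ttc8 encode subunits of the BBSome, Bbs10 and Bbs12 encode chaperonin-like proteins that help assemble it, and the GTPase Arl6 brings it to membranes. Bbs2 had 365, 351, 354 and 347 in SOM and 261, 248, 278 and 261 in EMM. The SOM libraries were close together and all above EMM, by 0.43 (SE 0.08, limma adjusted p = 8.19e-05). Bbs12 had 218, 205, 195 and 197 in SOM and 133, 152, 152 and 145 in EMM, a difference of 0.48 (SE 0.10, limma adjusted p = 0.000319). Bbs1 and Bbs4 were also higher in SOM, by 0.38 and 0.31. Ttc8, the BBS8 subunit gene, had 472, 463, 497 and 503 in SOM and 582, 571, 585 and 592 in EMM. The EMM libraries were all above, with a difference of -0.27 (SE 0.06, limma adjusted p = 0.00103). Bbs5, Bbs7, Bbs9, Bbs10 and Arl6 had differences from -0.11 to 0.16. Bbs10 and Bbs5 had the lowest counts of the 50 genes, with SOM means of 122 and 125 and EMM means of 108 and 120, and their 95% intervals, -0.12 to 0.45 and -0.19 to 0.30, were wide beside the differences seen.

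In the transition zone B9d1, Mks1 and Tmem216 were higher in SOM and Tctn1 was higher in EMM. B9d1 and Mks1 encode B9 domain proteins of the Meckel syndrome complex. B9d1 had 325, 269, 288 and 260.4 in SOM and 185, 204, 209 and 178 in EMM, and Mks1 had 399, 349.9, 362 and 321 in SOM and 268, 280.2, 237 and 263 in EMM. The groups did not overlap in either gene, and the differences were 0.55 (SE 0.10, limma adjusted p = 8.51e-05) and 0.45 (SE 0.09, limma adjusted p = 0.000262). The difference of B9d2, the remaining B9 gene, was 0.24 (SE 0.11, limma adjusted p = 0.0656, over the alternatives from 0.0275 to 0.216). It passed with edgeR and with upper quartile or TMM scaling, and also without SOM replicate 1, SOM replicate 4 or EMM replicate 2, and without SOM replicate 4 and EMM replicates 2 and 3 together. Tmem216, which encodes a small membrane protein of the same zone, averaged 381 ± 17.9 in SOM and 286 ± 25.8 in EMM (SD, n = 4 each; difference 0.41, limma adjusted p = 0.000312). The tectonic genes Tctn1, Tctn2 and Tctn3 had differences of -0.40, -0.14 and 0.07, and Tctn1 was the one that passed. Tctn1 had 189, 158, 156 and 164 in SOM and 236, 222, 224 and 199 in EMM, with all EMM libraries above (SE 0.10, limma adjusted p = 0.00190). Its exons share 2113 annotated bases with other genes, among them Hvcn1, whose own difference was 0.12. The large scaffold genes Cep290 and Rpgrip1l had differences of 0.00 and -0.02, with 95% intervals of -0.20 to 0.20 and -0.19 to 0.15. Cc2d2a and Tmem67 stood at -0.06 and 0.10.

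Of the 7 genes of ciliary signalling and the basal body, 4 were higher in SOM (57.1%) and 1 in EMM (14.3%). Of all genes tested, 36% were higher in SOM and 36.1% in EMM. Evc2 and Evc, the genes of the Ellis-van Creveld syndrome, encode partners that relay Hedgehog signals inside the cilium. They lie head to head on chromosome 5 of GRCm38, Evc from 37289098 to 37336894 on the minus strand and Evc2 from 37338499 to 37425055 on the plus strand, with 1604 bases between them. Evc2 had 1369, 1339, 1509 and 1315 in SOM and 876, 851, 834 and 883 in EMM, and had the most positive difference of the 50 genes, 0.68 (SE 0.06, limma adjusted p = 2.10e-08). Evc averaged 1997 ± 143 in SOM and 1530 ± 97.3 in EMM (SD, n = 4 each; difference 0.38, limma adjusted p = 3.16e-05). The groups were apart for both genes. Kif7, a kinesin that regulates Gli factors at the ciliary tip, averaged 963 ± 77.7 in SOM and 705 ± 46.4 in EMM (SD, n = 4 each; difference 0.45, limma adjusted p = 2.39e-05). It shares 928 exonic bases with genes on the other strand, among them the replication gene Ticrr, whose difference was 0.69, and without strand their reads cannot be told apart.

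The GTPase genes Arl3 and Arl13b went opposite ways. In the cilium Arl13b activates Arl3, which in turn releases lipid-modified cargo from its carriers. Arl3 had 1725, 1879, 1748 and 1598 in SOM and 1226, 1283, 1092 and 1345 in EMM, all SOM libraries above (difference 0.49, SE 0.07, limma adjusted p = 6.15e-06). Arl13b had 499, 511, 449 and 546 in SOM and 758, 743, 717 and 771 in EMM, all EMM libraries above (difference -0.58, SE 0.07, limma adjusted p = 1.21e-06). Tulp3, an adaptor that brings receptors to IFT-A, averaged 1970.5 ± 65.4 in SOM and 2111 ± 170 in EMM (SD, n = 4 each), and the basal body gene Ofd1 averaged 529.6 ± 24.5 in SOM and 489 ± 5.26 in EMM; the Ofd1 libraries did not overlap. Neither passed, with 95% intervals of -0.22 to 0.03 for Tulp3 and -0.02 to 0.25 for Ofd1.

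Levels were set side by side per length, as mean normalized count per kb of annotated exon over all isoforms. By the mean over both regions, Arl3 and Kif3a had the highest levels, at 698 and 615 per kb in SOM and 497 and 528 per kb in EMM. Arl3 was thus the higher of these in SOM and Kif3a in EMM. By the same mean Tctn1 and Cep290 had the lowest levels, at 20.1 and 25.7 per kb in SOM and 26.6 and 25.6 per kb in EMM. Over all 8 libraries the median level was 185 per kb for IFT-B genes, 95.4 for IFT-A, 76.5 for BBS and 76.6 for the transition zone. The exon length counts every annotated isoform, used here or not.

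**Figure D4:**
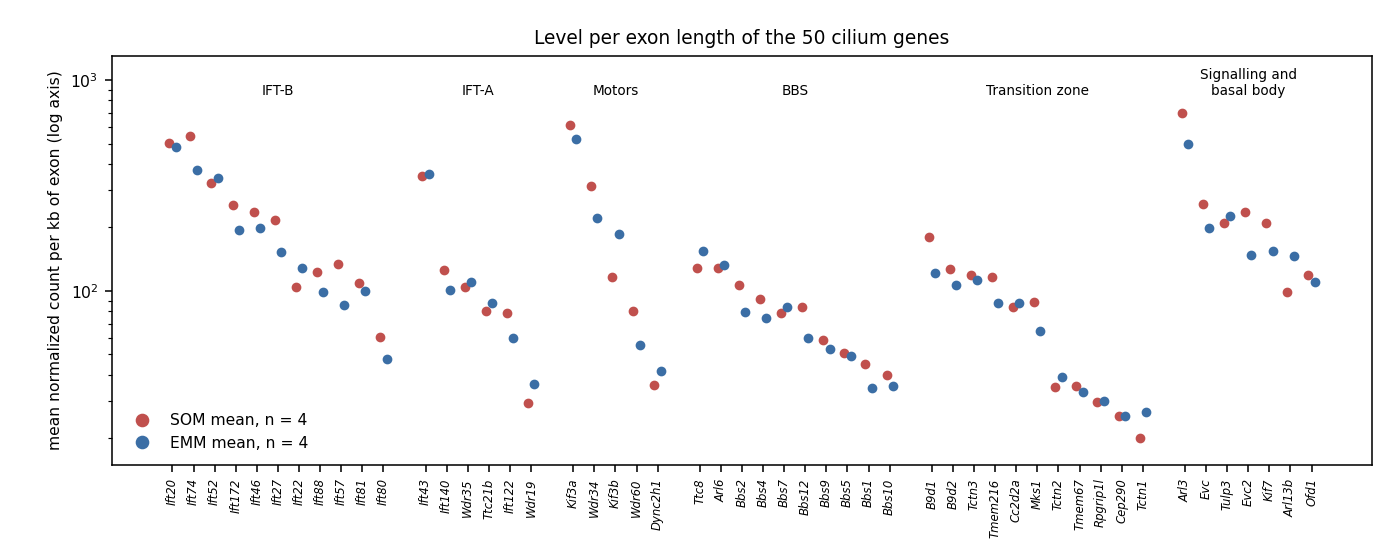
Mean normalized count per kb of exon (y axis, log scale) of the 50 cilium genes in SOM (red) and EMM (blue), ordered by level within each role. By the mean over both regions, levels span from Tctn1 (20.1 in SOM, 26.6 in EMM) to Arl3 (698 in SOM, 497 in EMM), while the points of 1 gene differ by at most 1.61-fold.

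Promoters were read because RFX transcription factors, some of them regulators of many cilium genes, bind a motif known as the X-box. The search asked for GTTNCC and GGNAAC with 0 to 3 bases between them, a pattern that reads the same on both strands. Windows were 300 bases, 250 before and 50 from the gene start, from RefSeq on GRCm38.p6, and 46 of the 50 genes had one. The motif was in 5 of these 46 genes (10.9%), where it was in 253 of all 27025 genes with a window (0.936%) and in 0.990% of the 10505 tested genes with a window. With 2 bases between the parts it was in 3 of the 46 (Mks1, Tctn1 and Bbs7), or 6.52%, and in 143 of the 27025 genes (0.529%). The windows had a median of 60% G and C bases in the 46 genes and 52.67% over all genes with a window. The part of this base content was not tested. A match is a description of these letters, not of binding. The 5 windows are shown because they are all the windows of the 50 genes that hold the motif, which is in capitals:
Mks1: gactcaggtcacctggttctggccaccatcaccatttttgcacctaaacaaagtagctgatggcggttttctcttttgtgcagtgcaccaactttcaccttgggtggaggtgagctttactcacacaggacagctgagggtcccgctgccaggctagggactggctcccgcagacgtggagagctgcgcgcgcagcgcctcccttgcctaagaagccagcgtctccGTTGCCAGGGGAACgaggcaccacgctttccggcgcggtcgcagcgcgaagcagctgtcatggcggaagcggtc
Ift57: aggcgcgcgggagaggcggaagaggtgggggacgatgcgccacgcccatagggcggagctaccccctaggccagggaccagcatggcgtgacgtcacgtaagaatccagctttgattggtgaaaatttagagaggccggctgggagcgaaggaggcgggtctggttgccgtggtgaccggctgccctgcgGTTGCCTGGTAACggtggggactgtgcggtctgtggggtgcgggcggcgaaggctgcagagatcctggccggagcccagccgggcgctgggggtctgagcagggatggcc
Tctn1: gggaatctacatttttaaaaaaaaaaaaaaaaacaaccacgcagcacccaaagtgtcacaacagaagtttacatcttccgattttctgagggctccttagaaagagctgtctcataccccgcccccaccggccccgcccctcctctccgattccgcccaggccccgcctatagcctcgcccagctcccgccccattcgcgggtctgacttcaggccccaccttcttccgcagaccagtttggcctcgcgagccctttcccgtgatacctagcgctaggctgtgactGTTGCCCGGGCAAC
Tctn3: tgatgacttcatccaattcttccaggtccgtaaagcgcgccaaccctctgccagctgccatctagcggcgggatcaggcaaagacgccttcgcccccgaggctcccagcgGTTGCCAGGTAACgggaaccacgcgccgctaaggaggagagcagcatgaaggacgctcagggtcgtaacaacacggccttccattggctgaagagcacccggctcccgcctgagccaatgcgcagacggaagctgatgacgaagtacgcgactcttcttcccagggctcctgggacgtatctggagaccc
Bbs7: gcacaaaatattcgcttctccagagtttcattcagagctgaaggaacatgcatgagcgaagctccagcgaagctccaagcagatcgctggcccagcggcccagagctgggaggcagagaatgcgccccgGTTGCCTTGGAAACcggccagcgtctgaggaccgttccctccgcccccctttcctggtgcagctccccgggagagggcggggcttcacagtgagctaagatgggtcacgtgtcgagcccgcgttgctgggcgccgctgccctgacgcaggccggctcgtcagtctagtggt
They lie at chr11:87852965-87853264 on the plus strand for Mks1, chr16:49699044-49699343 on the plus strand for Ift57, chr5:122264411-122264710 on the minus strand for Tctn1, chr19:40612182-40612481 on the minus strand for Tctn3 and chr3:36613340-36613639 on the minus strand for Bbs7. Counted from 1 at the 5′ end of the window, with the gene start following base 250, the motif began at base 227 in Mks1, 191 in Ift57, 287 in Tctn1, 111 in Tctn3 and 130 in Bbs7. Of these genes, Mks1 and Ift57 were higher in SOM, Tctn1 was higher in EMM, and Tctn3 and Bbs7 did not pass, so that genes with the motif stood on either side. Genes of the RFX family were measured too, whether or not they regulate cilium genes. Of 5 tested, 3 were higher in SOM (60%, where 36% of all genes tested were) and none was higher in EMM. Rfx3 averaged 265 ± 41.3 in SOM and 144 ± 11.5 in EMM (SD, n = 4 each; difference 0.86, limma adjusted p = 5.72e-06), and Rfx5 and Rfx1 were higher in SOM by 0.49 and 0.48. The exons of Rfx5 share 1471 annotated bases with B230398E01Rik on the other strand. Rfx2 and Rfx7 did not pass, and Rfx4 was too low to be tested.

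Other genes of the cilium and genes linked to it were examined in 7 lists of 88 genes, of which 85 were tested. The lists include cilium-dependent Hedgehog genes, RFX factors and disassembly genes known also from mitosis. Higher in SOM were 46 (54.1%), higher in EMM were 12 (14.1%), and 27 missed the threshold; their median was 0.21. Over all genes tested the shares were 36% and 36.1%, with a median of 0.01. By list, the share higher in SOM ran from 29.4% (other transition zone genes) to 75% (cilium disassembly genes). It was 36.4% for other IFT and motor genes. Of 21 centriole and basal body genes, 15 stood higher in SOM and 2 in EMM, the median being 0.31. Cep131, a centriolar satellite gene, averaged 1689.9 ± 49.95 in SOM and 803 ± 48.8 in EMM (SD, n = 4 each; difference 1.07, limma adjusted p = 8.53e-11), Cep89 was higher in SOM by 0.72, and Ttbk2, the kinase gene that starts cilium growth, and Cep120 were higher in EMM, at -0.40 and -0.35. The exons of Ttbk2 share 3409 of their 11406 annotated bases with Cdan1 on the same strand. Of 11 other IFT and motor genes, 4 passed toward SOM and 2 toward EMM (median 0.06). Kif17, a homodimeric kinesin-2 gene, was low at 23.03 ± 1.13 in SOM and 10.8 ± 3.76 in EMM (SD, n = 4 each; difference 1.1), and Cluap1, the IFT38 gene, was higher in SOM by 0.88. The exons of Cluap1 share up to 929 of their 2279 annotated bases with other genes, among them Gm20695 on the same strand. The other transition zone genes had 5 of 17 higher in SOM, such as Iqcb1 (0.63), and 2 in EMM, Invs (-0.32) and Tmem237 (-0.27), with a median of 0.08.

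Among 14 genes of BBSome partners and ciliary cargo transport, 7 were higher in SOM (50%), such as Tub and Unc119, and Rp2 was higher in EMM (7.14%). Of all genes tested, 36% were higher in SOM and 36.1% in EMM. Unc119, which carries myristoylated proteins, averaged 1804 ± 45.3 in SOM and 884 ± 46.1 in EMM (SD, n = 4 each; difference 1.03, limma adjusted p = 7.26e-11). Tub, a relative of Tulp3, had 539 ± 10.1 in SOM and 241 ± 20.5 in EMM (SD, n = 4 each; difference 1.16, limma adjusted p = 1.83e-09). The exons of Tub share up to 1205 of their 8391 annotated bases with genes on the other strand, among them Ric3. Rp2, the gene that in vertebrates switches Arl3 off, averaged 334 ± 31.6 in SOM and 575 ± 54.4 in EMM (SD, n = 4 each; difference -0.78, limma adjusted p = 4.99e-07). Arl3 and Rp2 thus stood on opposite sides.

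All 9 genes of cilium-dependent Hedgehog signalling passed, 6 higher in SOM and 3 in EMM, where 72.1% of all genes tested passed. Gli1, a direct target and read-out of the pathway, averaged 3059 ± 271 in SOM and 614 ± 118 in EMM (SD, n = 4 each; difference 2.33, limma adjusted p = 7.58e-08), and Ptch1, receptor and target, was higher in SOM by 0.80. Gpr161 and Sufu, which hold the pathway back, were higher in EMM, at -0.73 and -0.39. Smo, the membrane transducer that moves into the cilium, differed by 0.10 (limma adjusted p = 0.0489) and was named after its values were seen. The rest of the list, also named after its values were seen, held Gli2 (0.58), Efcab7 (0.52) and Gli3 (0.27), higher in SOM, and Iqce (-0.31), higher in EMM. Cilium disassembly genes, known also from mitosis, had 6 of 8 higher in SOM, such as Kif24 (0.66) and Tchp (0.60), and 2 in EMM, Nedd9 (-0.46) and Ndel1 (-0.40).

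**Figure D5:**
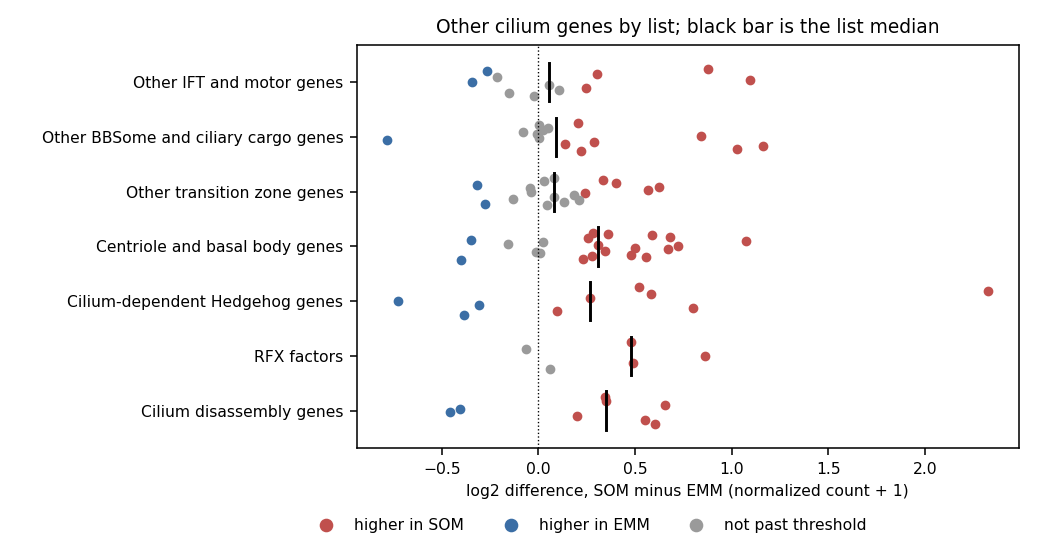
Log2 difference (SOM minus EMM, x axis) of the tested genes of 7 further lists of cilium and cilium-linked genes, with each list's median as a black bar. All 7 medians lie right of 0, from 0.06 to 0.48, and Gli1 stands furthest to the right at 2.33.

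Of 20 genes of motile cilia, 10 passed the filter on low values and were tested, of which 3 were higher in SOM (30%) and 2 in EMM (20%). Both shares are below those of all genes tested, 36% and 36.1%. Summed over the 20 genes, normalized counts ran from 797 to 882 in SOM and from 797 to 891 in EMM. Tekt2, a tektin gene, had the highest counts of the list, at 243 ± 22.8 in SOM and 266 ± 33.2 in EMM (SD, n = 4 each), and did not pass. Ccdc40, needed for the assembly of motile axonemes, averaged 181 ± 5.85 in SOM and 127 ± 20.9 in EMM (SD, n = 4 each; difference 0.52, limma adjusted p = 0.000980). Gmnc, a switch gene of multiciliated cells, and the outer arm dynein gene Dnah5 had at most 1 read in any library. Foxj1, the master regulator gene of motile cilia, averaged 44.7 in SOM and 29.3 in EMM (difference 0.60, limma adjusted p = 0.00740). Tekt1, a tektin gene of axonemes, averaged 33.3 in SOM and 1.49 in EMM, with a difference of 3.92 (limma adjusted p = 1.51e-07), while Spag17 (-0.97) and Tppp3 (-0.47) were higher in EMM. The groups overlapped in Tppp3.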

How the data were processed

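RNA of 8 pools was measured by RNA-seq. Tools named in the submitters' processing notes are STAR, bcl2fastq and DESeq2, with build mm10; annotation, counter and strand setting were not given in the sources used here. What the authors deposited was, per the file headers and the values, the signal per gene per library as a normalized count (reads divided by a size factor) and its mean over libraries. The deposited table also holds the authors' log2 fold change (EMM over SOM) with its SE, a Wald score, and a p-value with its adjusted form. Every library value was a whole multiple of the smallest in its column (100%, tolerance 1e-06), so reads were recovered by division.

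Genes were kept if 4 or more libraries had a normalized count of 10 or more. Values were fitted as log2(normalized count + 1) with limma 3.58.1 in R 4.3.3 (trend, robust, no covariate), and adjusted p-values were called at 0.05. This scale understates the change of low genes. The fit was tested on simulated data. Libraries of a group differed by more than sampling noise (chi-square per degree of freedom of at least 3.72). Exon lengths, positions and shared exons came from GENCODE M21 on GRCm38, where exons of 11 of the 50 genes overlap those of another. Genes and lists were chosen with earlier results of these data known. Genes given per library were the called members with the 2 widest differences per direction in each role, and Kif3a, added after its values were seen; from each further list, the 2 widest per direction, except 1 gene that is not reported here. Alternatives were another pseudocount (5), no filter or a minimum of 50, upper quartile and TMM scaling, edgeR 4.0.16 on recovered reads, the authors' DESeq2 table, no trend or robust moderation, a replicate block and left-out libraries.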

Additional observations from a re-analysis of the deposited data

Results flagged for a closer look

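In 3 of the 100 groups of 4 libraries examined, 1 library stood far from the other 3 (Dixon's test at the 95% level), where chance flags about 1 in 20. Rpgrip1l had 505 in EMM replicate 1, above 416 to 425 in the other EMM libraries. Ift122 had 651 in EMM replicate 3, above 603 to 609, and still below every SOM library. Bbs4 had 579 in SOM replicate 1, above 543 to 548.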

How the results depend on the processing

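Of the 50 cilium genes, 44 kept their direction and their side of the threshold in all 18 alternatives, among them 29 of the 30 that passed; Dync2h1 was the exception. Counts ran from 23 to 24 higher in SOM and from 6 to 7 higher in EMM over these alternatives, with 24 and 6 where SOM replicate 4 and EMM replicates 2 and 3 were left out together. IFT counts were 9 and 2, except for 10 higher in SOM without SOM replicate 3, BBS counts stayed at 4 and 1, and the transition zone counts were 3 or 4 and 1. Over left-out single libraries, the difference of Cep290 ran from -0.064 to 0.050 and the difference of Rpgrip1l from -0.044 to 0.049. Rpgrip1l was at 0.014 with upper quartile and at 0.0091 with TMM scaling, and without the 3 libraries together the difference of Ift20 was at -0.033 and that of Cep290 at -0.145; none of these passed, and the cause was not tested. edgeR on the recovered reads called 5262 genes of all tested higher in SOM and 5088 higher in EMM. TMM and upper quartile scaling moved the median of all genes by 0.03. Whether the replicate numbers pair the libraries could not be told. Same-numbered libraries had correlations of their deviations of 0.126, 0.01, 0.04 and -0.02, and 0.126 was the highest of any SOM and EMM pair. Not every library correlated best with its own number, but deviations among 4 pools per group can miss shared embryos. With the replicate block the counts were 23 and 7. The motif was in 3 genes with a spacer of 2 bases, as fewer spacers were allowed. Bbs5 and Bbs10 had the lowest mean counts of the 50 genes and the widest 95% intervals.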
